A study of Homo sapiens with 3 samples.

Results

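The genes described are SULF2 and 9 other genes of heparan sulfate synthesis and editing. They include its paralogue SULF1, the chain polymerases EXT1 and EXT2, and the related transferase EXTL2. The rest are the sulfotransferases NDST1, NDST2, HS2ST1, HS3ST1 and HS6ST1. A probe set was counted if the platform's annotation paired it with 1 of these symbols and no other. By this rule 9 of the 10 genes were measured, by 24 probe sets, among 19775 genes on the arrays. NDST2 had no such probe set. The group was chosen by a measured value, the SULF2 signal on the RECK array, which stood far from the others, so the SULF2 values are a description and support nothing by themselves.

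Total RNA came from 3 stably transfected lines of HT1080, an established human fibrosarcoma line, with 1 Affymetrix array for each. The line called Zeo was mock-transfected. The line called RECK carried pZeoSV2(+)-RECK, a vector for RECK, a membrane-anchored inhibitor of matrix metalloproteinases. The line called RECK/4NQ carried the same vector for a RECK protein in which 4 asparagines that bear N-glycans were changed to glutamine. All lines were kept in 50 µg/mL Zeocin with 10% fetal calf serum. Whether a line is 1 clone or a pool of cells is not stated in the labels, and differences between clones cannot be told apart from the effect of the transfected gene. There were no replicates, so no test, SD or p-value could be had.

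Heparan sulfate is a long sugar chain attached to core proteins such as syndecans, glypicans and perlecan. The Golgi polymerases build the chain, and sulfotransferases then add sulfate groups at set positions, which makes binding sites for growth factors, chemokines and proteases. SULF1 and SULF2 act later, outside the cell, where they remove 6-O sulfate groups from finished chains and so change which ligands the chains hold. SULF2 is known to be abundant in several tumour types.

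Values are MAS5 signals, a linear intensity with 1 value per probe set and array. Any signal under 12.2, the 40th percentile of the signals and here called the floor, was raised to it for the ratios, and a gene was called higher or lower at 2-fold or more. A fold with 1 array under the floor can only be a bound and is written "at least". A gene's ratio was taken from its brightest probe set. The median signal was between 17.3 and 20.3 on the 3 arrays, and the median log2 ratio of the 14289 genes with a mean level above the floor was -0.20 in RECK relative to Zeo. It was -0.12 in RECK/4NQ relative to Zeo, and -0.06 in RECK relative to RECK/4NQ. When the arrays were brought to a common scale, higher genes went as a share of those called from 37.5% to between 52.9% and 54.2% in the first of these comparisons, from 28.3% to between 33.9% and 50.9% in the second, and from 56.3% to between 52.3% and 66.0% in the last. RECK's brightest probe set read 264 (Zeo), 387 (RECK) and 442 (RECK/4NQ). The part of RECK it covers was not given, so it is no firm check of the labels, and the 4 other RECK probe sets lay between 2.08 and 26.2. Of 12 fibroblast and mesenchymal markers 11 (Zeo), 11 (RECK) and 8 (RECK/4NQ) reached the floor, with VIM at 10307 to 10704 and FN1 at 2444 to 2707; LUM was below it on each array, and COL1A2, COL3A1 and PDGFRB were below it in RECK/4NQ. Of 10 epithelial markers 3, 4 and 4 reached it. KRT8 and KRT18 were at 1039 to 1659 and 7371 to 9895, GRHL2 had 37.1, 20.3 and 9.30, and EPCAM and KRT19 were below the floor on each array. Of 7 endothelial markers 1, 4 and 1 reached it, with PECAM1 at 108, 70.3 and 72.4 and CDH5 below it on each array. Of 5 measured leukocyte markers 3, 1 and 3 did, the highest being CD3E at 48.7 in Zeo. The part of other cell types in the results was not tested.

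SULF2 was bright on 1 array only. Its probe set 224724_at read 28.4 in Zeo cells, 714 in RECK cells and 20.4 in RECK/4NQ cells. The second probe set, 233555_s_at, whose suffix marks probes shared by several transcripts, had 43.0, 246 and 12.8. Both put RECK first, Zeo second and RECK/4NQ last. By the brighter probe set SULF2 was 25.1-fold higher in RECK than in Zeo and 35.1-fold higher in RECK than in RECK/4NQ; by the other it was 5.72-fold and 19.3-fold higher. The first of these log2 ratios, 4.65, lay 9.30 robust spreads above the median of the 1000 genes nearest in level, a spread that holds real differences as well as noise. Among genes measured on both arrays with the brighter one at or above the 80th percentile of signals, 1 gene of 7004 had a larger ratio of RECK to Zeo, and 1 of 6849 a larger ratio of RECK to RECK/4NQ. The spread and these ranks come from the values that chose SULF2, so they describe it and support nothing. SULF2 reached the 80th percentile through its RECK signal only.

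The order of Zeo and RECK/4NQ was the same in both SULF2 probe sets, but not the size of the gap. RECK/4NQ was 1.39-fold below Zeo by 224724_at, a log2 ratio of -0.48 that lay 0.60 spreads below the local median, and 3.37-fold below by 233555_s_at. The mean of both probe sets gave a log2 ratio of -1.12, past 2-fold. Whether these lines differ in SULF2 beyond array noise could not be tested with 1 array each.

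The annotated starts of SULF2 are shown because it is the member with the largest difference between the lines. RefSeq's table for GRCh38.p14 gives 4 start sites for SULF2, which lies on the minus strand of chromosome 20 at 47657406 to 47786627. The arrays do not tell which start was used. The 250 bases before each start were searched on both strands for the GC box (GGGCGG), for a form of the TATA box (TATANA), for the AP-1 site (TGANTCA) and for the CCAAT box. Starts 3 and 4, counted along the gene's strand, are printed 5′ to 3′ on that strand with every match in capitals.
SULF2 start 3 (chr20:47785482-47785731, minus strand): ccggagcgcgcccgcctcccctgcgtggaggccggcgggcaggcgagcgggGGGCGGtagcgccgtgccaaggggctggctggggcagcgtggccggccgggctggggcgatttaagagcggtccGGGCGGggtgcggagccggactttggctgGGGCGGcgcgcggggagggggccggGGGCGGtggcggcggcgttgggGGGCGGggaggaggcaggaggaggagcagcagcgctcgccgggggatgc
SULF2 start 4 (chr20:47764429-47764678, minus strand): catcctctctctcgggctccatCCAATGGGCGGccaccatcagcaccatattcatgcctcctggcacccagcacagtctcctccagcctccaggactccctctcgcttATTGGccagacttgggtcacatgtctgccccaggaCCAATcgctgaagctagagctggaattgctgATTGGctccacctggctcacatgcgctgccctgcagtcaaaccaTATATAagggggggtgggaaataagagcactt
The window of start 3 was 81.2% G and C with 34 CG pairs, against medians of 58.0% and 11 pairs over 35116 windows of all genes, and held 5 GC boxes and no other match. The window of start 4 was 56.8% G and C with 5 CG pairs. It held 1 TATA box form, which reads the same on both strands, at 32 to 27 bases before the start, then 4 CCAAT boxes and 1 GC box that adjoins the outermost of them. Start 1 had 1 CCAAT box and start 2 had no match. None of the 4 windows held the AP-1 site. Of all windows, 42.6% held a GC box, 17.7% the TATA box form, 6.57% the AP-1 site and 32.0% a CCAAT box. A match describes letters and not a bound site.

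**Figure D1:**
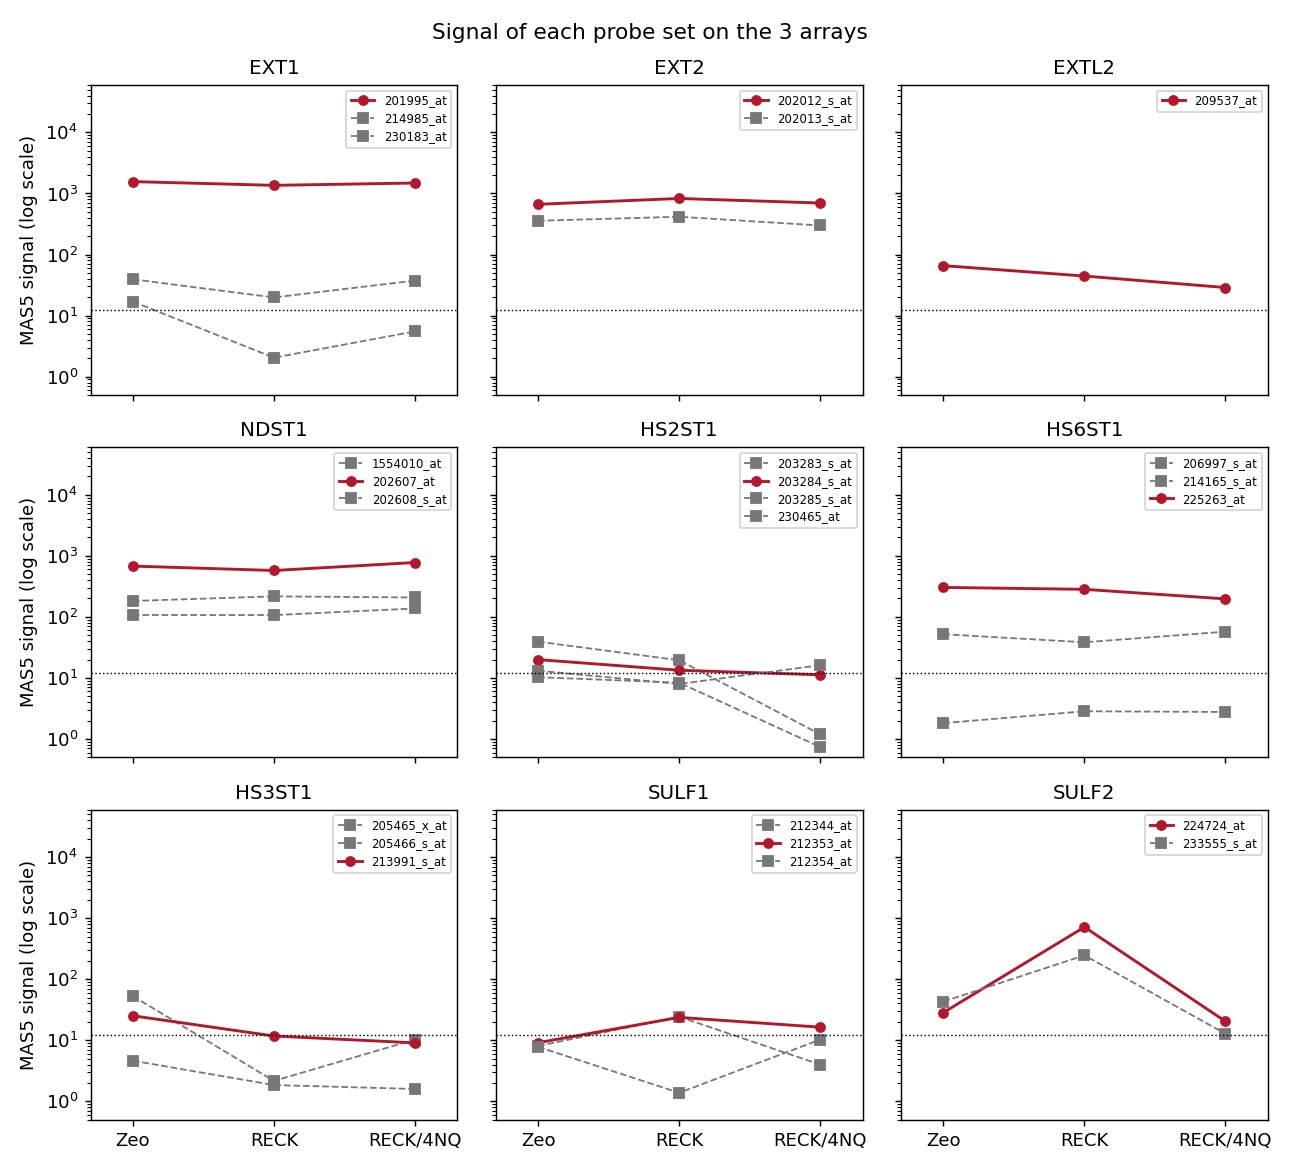
MAS5 signals on a log axis of all 24 probe sets of the 9 measured genes on the Zeo, RECK and RECK/4NQ arrays, with the brightest probe set of each gene in red, the others in grey and the floor of 12.2 dotted. Both SULF2 probe sets peak on the RECK array, at 714 and 246, while those of EXT1, EXT2, NDST1 and HS6ST1 that reach the floor on every array move less than 2-fold; levels of different probe sets are not comparable.

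SULF1, the other extracellular 6-O endosulfatase, was dim on every array. Its brightest probe set, 212353_at, had a signal of 9.11 (Zeo), 23.7 (RECK) and 16.4 (RECK/4NQ). A second one, 212344_at, had 8.05, 24.3 and 3.99, and the third, 212354_at, had 7.79, 1.38 and 10.3, all below the floor. With Zeo below the floor, SULF1 in RECK was at least 1.94-fold and 1.99-fold higher by the first and second probe sets. Neither was called higher, since the RECK signals were short of 24.5, the floor times 2. With the arrays brought to a common trimmed mean, a common median or common quantiles, 2 of the 9 measured members were called higher in RECK than in Zeo instead of 1, SULF1 being the second.

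EXT1 and EXT2, by their brightest probe sets, differed little between the lines. They form the complex that lengthens the chain by adding its sugars in turn. EXT1 had signals of 1566 (Zeo), 1359 (RECK) and 1484 (RECK/4NQ) by 201995_at, so that the largest ratio between any of these arrays was 1.15-fold. A dim EXT1 probe set, 230183_at, had 39.3, 19.8 and 37.4, with RECK 1.98-fold below Zeo, and another, 214985_at, was above the floor only in Zeo, at 17.0. EXT2 had 665, 829 and 698 by 202012_s_at and 357, 416 and 299 by 202013_s_at. Both EXT2 probe sets were highest in RECK, by 1.25-fold and 1.16-fold over Zeo.

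EXTL2, a related transferase that can add a single sugar to the chain's linker, had its only probe set at 65.8 (Zeo), 44.4 (RECK) and 28.8 (RECK/4NQ). It was 2.28-fold lower in RECK/4NQ than in Zeo, a log2 ratio of -1.19 that lay 1.52 spreads below the local median. With the arrays at a common median or a pseudocount in place of the floor it was short of 2-fold, at -0.96 and -0.87. In RECK it was 1.48-fold below Zeo.

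NDST1, which replaces acetyl by sulfate on glucosamine as the first step of chain modification, was held by 3 probe sets above the floor. The brightest, 202607_at, had a signal of 679 (Zeo), 575 (RECK) and 777 (RECK/4NQ). The others had 182, 217 and 208, and 107, 107 and 137. None of the 3 differed by more than 1.35-fold between any arrays, and their order of RECK and Zeo was not the same.

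HS6ST1, the enzyme that places the 6-O sulfates which SULF2 removes, had a signal of 304 (Zeo), 282 (RECK) and 197 (RECK/4NQ) by 225263_at. RECK/4NQ was thus 1.54-fold below Zeo, while the dimmer 206997_s_at had 52.0, 38.3 and 57.2 and put RECK/4NQ 1.10-fold above it. Its remaining probe set was below the floor on each array. By 225263_at HS6ST1 was 1.07-fold lower in RECK than in Zeo, a log2 ratio of -0.10. Over all genes with a mean level above the floor the median was -0.20. With a common trimmed mean, a common median and common quantiles the HS6ST1 ratio was 0.07, 0.08 and 0.06, so its direction depended on the scaling.

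HS3ST1, which adds the rare 3-O sulfate known from the antithrombin-binding site of heparin, was highest in Zeo by all of its probe sets. Its signals were 25.2 (Zeo), 11.7 (RECK) and 9.05 (RECK/4NQ) by 213991_s_at, and 52.8, 2.16 and 10.2 by 205466_s_at. The third probe set, 205465_x_at, was below the floor on each array, at 4.62, 1.85 and 1.59. By the first it was at least 2.06-fold lower in both transfected lines, and by the second at least 4.32-fold lower in both. These 2 folds are equal between the lines because both lines were under the floor. The call of the first was lost, with a log2 ratio between -0.96 and 0, under the common scalings, a 60th percentile floor and the pseudocount.

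HS2ST1, which sulfates the chain's uronic acid, was near the floor. By 203284_s_at it had a signal of 19.9 (Zeo), 13.4 (RECK) and 11.2 (RECK/4NQ), and by 203283_s_at 39.2, 19.5 and 1.19. Its other probe sets had 13.1, 7.96 and 16.1, and 10.3, 8.34 and 0.74. All 4 were lower in RECK than in Zeo as deposited, and 1 of them, 203283_s_at, was past 2-fold, at 2.01-fold. In RECK/4NQ 203283_s_at was at least 3.21-fold lower than in Zeo, while 203285_s_at was above Zeo.

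In all, 1 of the 9 measured genes was higher in RECK cells than in mock-transfected ones (SULF2; of all genes 4.03% were) and 1 was lower (HS3ST1; 6.71%). In RECK/4NQ none was higher than in Zeo (2.82%) and 2 were lower, EXTL2 and HS3ST1 (7.14%). SULF2 alone was higher in RECK than in RECK/4NQ (5.77%), and no member was lower (4.48%). Nothing is read from the SULF2 counts, since its values chose the group. Without SULF2, the median log2 ratio of the other 8 measured genes was -0.22 in RECK relative to Zeo, against -0.20 over all genes, and -0.35 in RECK/4NQ relative to Zeo, against -0.12. In RECK relative to RECK/4NQ it was 0.19, against -0.06. Any pair of these comparisons shares an array. Of the 9 genes, 6 reached the floor on each of the 3 arrays.

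**Figure D2:**
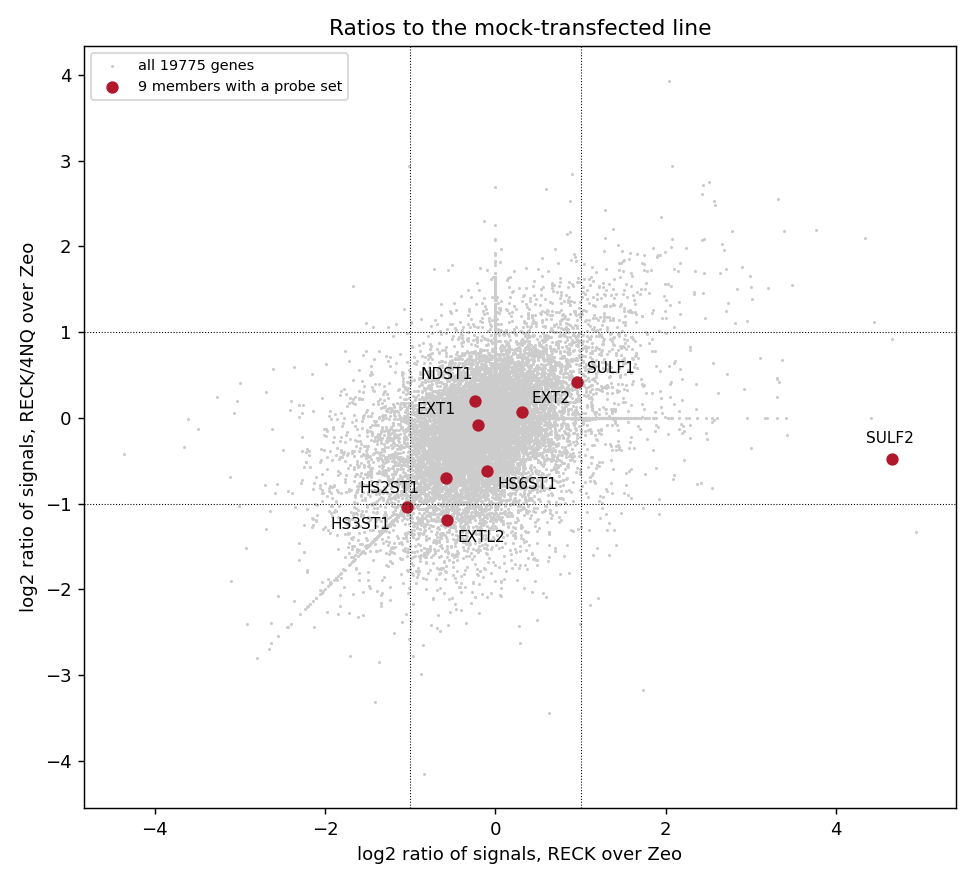
Log2 ratio of signals of RECK over Zeo (x axis) and of RECK/4NQ over Zeo (y axis) for 19775 genes in grey and the 9 measured members in red, with dotted lines at 2-fold; both axes share the Zeo array and values at the floor form straight streaks. SULF2 lies at 4.65 and -0.48, while the 8 other members lie between -1.04 and 0.95 on the x axis.

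The other steps of heparan sulfate metabolism were read from lists chosen with earlier results of these data known. Genes of the chain's linker and of sulfate and sugar supply had 12 of 14 members on the arrays, of which 1 was higher and none lower in RECK against Zeo, with 11 short of 2-fold (all genes: 4.03% higher, 6.71% lower). The one was XYLT1, a xylosyltransferase that starts the chain, at 23.1 (Zeo), 54.3 (RECK) and 3.25 (RECK/4NQ). Its second probe set had 1.21, 41.3 and 1.00, again high in RECK only. XYLT2, its paralogue, had 880, 913 and 795, and B3GALT6, which adds a galactose of the linker, had 989, 938 and 978. In RECK/4NQ no gene of this list was called past 2-fold against Zeo. XYLT1, under the floor in RECK/4NQ, was at least 1.89-fold lower there, and a larger fall could not be read.

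Of 13 other polymerases and sulfotransferases, 8 had a mean level above the floor. None of the 13 was past 2-fold between RECK and Zeo, and 2 were lower in RECK/4NQ than in Zeo (all genes: 7.14%). HS3ST3A1, a further 3-O sulfotransferase, had a signal of 943 (Zeo), 1002 (RECK) and 954 (RECK/4NQ). EXTL3, which starts heparan sulfate on the linker, had 193, 167 and 154. HS3ST3B1 was 2.04-fold lower in RECK/4NQ, at 34.8 against 71.2, while another of its probe sets had 19.5 against 10.5. HS3ST6 had 32.4 (Zeo), 38.0 (RECK) and 4.13 (RECK/4NQ). Enzymes of chain breakdown, with 9 of 11 on the arrays, had no member past 2-fold in any comparison by the brightest probe sets. GUSB, a lysosomal glucuronidase, was at 882, 893 and 629 and SGSH, a lysosomal sulfamidase, at 455, 467 and 371. IDS, with 10 probe sets, had 299, 401 and 416 by the brightest, while a dim one had 11.8 (Zeo), 41.3 (RECK) and 21.4 (RECK/4NQ).

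Among core proteins, 4 of 13 were higher in RECK than in Zeo, none was lower and 9 fell short of 2-fold either way (all genes: 4.03% higher, 6.71% lower). Their median log2 ratio was 0.43 over the 11 with a mean level above the floor, against -0.20 for all genes. The glypican GPC4, held to the membrane by a lipid anchor, had signals of 20.7 (Zeo), 110 (RECK) and 11.2 (RECK/4NQ), and by a second probe set 9.46, 65.2 and 3.85. GPC1 had 674, 1453 and 416, and by its second probe set 14.4 (Zeo) and 7.86 (RECK/4NQ), with RECK again the brightest. COL18A1, the collagen whose fragment is endostatin, had 25.7, 96.3 and 24.0, and by its second 3.92, 55.0 and 2.89. The syndecan SDC3 had 44.8, 156 and 82.0, so that RECK/4NQ was also above Zeo, by 1.83-fold, and by its second 19.7, 45.0 and 21.7. For each of these 4 genes both probe sets were brightest on the RECK array. That the first of them exceeded Zeo follows from how the 4 were picked, and both were read from the same arrays.

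In RECK/4NQ, 2 of the 13 core proteins were higher than in Zeo and 1 was lower, against 2.82% and 7.14% of all genes. Perlecan, HSPG2, a basement membrane proteoglycan, had signals of 135 (Zeo), 182 (RECK) and 32.9 (RECK/4NQ), 4.09-fold lower in the last than in Zeo. Its other probe set had 28.8, 25.1 and 14.1. The syndecan SDC2 was 2.90-fold higher, at 45.6 against 15.7, but by a second probe set it was at 16.8 against 32.5. GPC6 was at 35.8 in RECK/4NQ and below the floor in Zeo and RECK, and its second probe set was below it on each array. The syndecans SDC1 and SDC4 had 3199, 3142 and 2824, and 1486, 1279 and 1159, within 1.28-fold of Zeo in both lines.

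The other sulfatases, listed with SUMF1 and SUMF2, counted 4 of 12 members as higher in RECK cells against Zeo, 1 as lower and 7 as neither. Of all genes 4.03% were higher and 6.71% lower. The median log2 ratio of the list was 0.60, against -0.20 for all genes. GALNS, a lysosomal sulfatase of keratan and chondroitin sulfate, had signals of 128 (Zeo), 424 (RECK) and 129 (RECK/4NQ), while its other probe set was below the floor on each array. ARSI had 10.2, 74.5 and 4.03, at least 6.09-fold higher in RECK than in Zeo. ARSL had 41.6, 91.8 and 26.6. ARSA, the lysosomal sulfatase of sulfatide, had 49.1, 110 and 51.7, but its second probe set had 63.2, 28.4 and 22.3. ARSG was lower, at 22.8 in RECK against 49.3 in Zeo, and at 33.3 in RECK/4NQ, a call that 6 of 8 alternatives ended. In RECK/4NQ none of the 12 was called past 2-fold against Zeo, and the median was -0.09 against -0.12. ARSF, at 21.5, 27.8 and 6.96, was called past 2-fold between RECK and RECK/4NQ only. With RECK/4NQ under the floor, ARSF was at least 1.75-fold lower there than in Zeo. SUMF1, which makes the catalytic residue that all sulfatases need, SULF2 included, had 211, 275 and 186, and its paralogue SUMF2 had 390, 446 and 443.

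**Figure D3:**
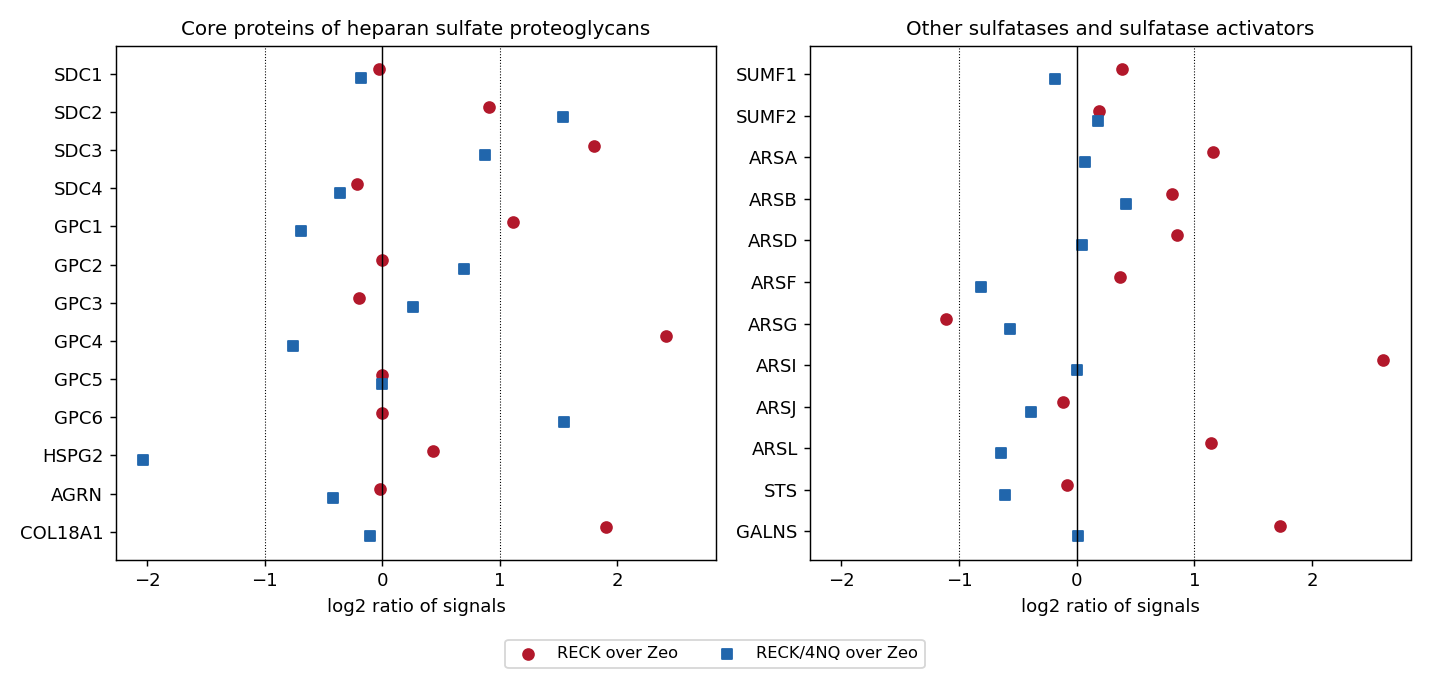
Log2 ratios of signals for 13 core proteins (left) and for 12 genes (right), the other sulfatases with SUMF1 and SUMF2. Red circles are RECK over Zeo and blue squares RECK/4NQ over Zeo, with dotted lines at 2-fold. A value of 0 can mean that both arrays were under the floor. GPC4, COL18A1, SDC3 and GPC1 on the left and ARSI, GALNS, ARSA and ARSL on the right are past 2-fold higher in RECK. ARSG on the right is past 2-fold lower in RECK, and in RECK/4NQ no gene on the right passes 2-fold.

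Ligands and receptors that bind heparan sulfate counted 5 of 19 members as lower in RECK cells against Zeo, none as higher and 14 as neither (all genes: 6.71% lower, 4.03% higher). The growth factor midkine, MDK, had signals of 344 (Zeo), 71.2 (RECK) and 209 (RECK/4NQ). FGF18 had 32.8, 13.0 and 33.4, FGF2 had 48.4, 23.9 and 11.5, and the receptors FGFR2 and FGFR3 had 35.4, 17.2 and 37.6, and 115, 49.6 and 35.6. In RECK/4NQ 4 were lower than in Zeo (all genes: 7.14%) and 1 was higher (2.82%): FGF2 and FGFR3 again, the FGF family member FGF5 at 4.98 against 41.3 and the BMP antagonist NOG at 256 against 544, with VEGFA at 1631 against 669. The other VEGFA probe sets were also higher in RECK/4NQ than in Zeo but short of 2-fold, at 230 against 197, 145 against 83.7 and 528 against 295. Another FGF5 probe set went the other way from its brightest, at 31.0 in RECK/4NQ against 2.99 in Zeo, and the last was below the floor on each array. HBEGF, an EGF receptor ligand, had 1870, 1706 and 1676.

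Of 16 enzymes of chondroitin and dermatan sulfate, the related chains, 3 were higher in RECK cells against Zeo, none lower and 13 neither (all genes: 4.03% higher, 6.71% lower). CSGALNACT1, which starts chondroitin chains, had signals of 7.26 (Zeo), 67.1 (RECK) and 27.4 (RECK/4NQ). The sulfotransferases CHST15 and CHST7 had 40.8, 111 and 45.5, and 8.84, 38.7 and 18.3. In RECK/4NQ CSGALNACT1 was higher than in Zeo (all genes: 2.82%), and CHSY3, a chondroitin synthase, and DSE, an epimerase, were lower (7.14%), at 19.6 against 40.2 and 58.0 against 118. CHSY3 and DSE only just passed 2-fold, at log2 ratios of -1.04 and -1.02. CHST14 and CHPF2 had 909, 805 and 1031, and 790, 838 and 709.

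Of the 10 nearest genes with a probe set on each side of SULF2 on chromosome 20, none was higher in RECK than in Zeo (all genes: 4.03%) and 3 of the 20 were lower (6.71%). In RECK against RECK/4NQ 1 was higher (5.77%) and 1 lower (4.48%). Of the 20, 5 were below the floor on each array. The transporter gene SLC13A3, at 26.4 (Zeo), 38.2 (RECK) and 15.2 (RECK/4NQ), was 2.52-fold higher in RECK than in RECK/4NQ and had the same order of the lines as SULF2. On 1 side the nearest was LOC101927377, with signals of 19.7 (Zeo), 31.0 (RECK) and 26.8 (RECK/4NQ). On the other side it was LINC01523, a noncoding gene, with 43.3, 11.7 and 7.45, lower in both transfected lines. PREX1, the third gene on that side and an activator of the small GTPase Rac, had 612, 124 and 676, so that it was low in the line where SULF2 was high. PTGIS, prostacyclin synthase, had 71.3, 34.4 and 38.9, and only just passed 2-fold in RECK against Zeo, at a log2 ratio of -1.05.

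**Figure D4:**
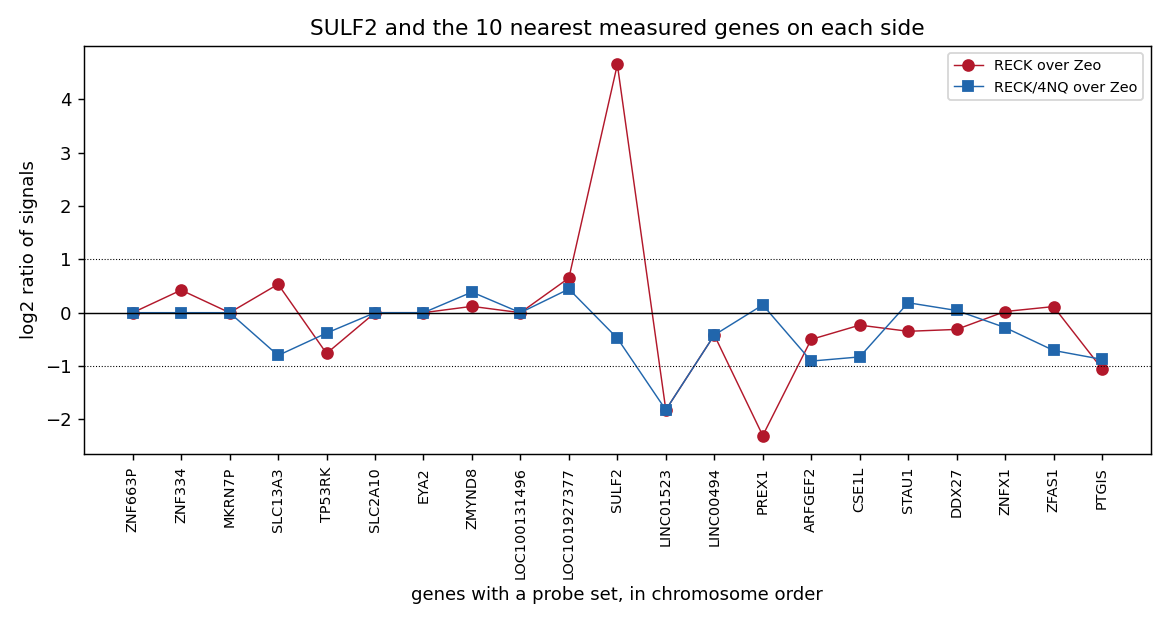
Log2 ratios of signals of RECK over Zeo (red circles) and RECK/4NQ over Zeo (blue squares) for SULF2 and the 10 nearest measured genes on each side, in chromosome order, with dotted lines at 2-fold and values of 0 where both arrays were under the floor. SULF2 stands at 4.65 in RECK while its neighbours lie between -2.30 and 0.65.

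The 5 genes whose pattern over the 3 arrays was most like that of SULF2 were HSD17B2, BEX1, SOX7, CDR2L and SUGCT. Likeness was the distance between the pairs of log2 ratios to Zeo, among 7172 genes with a signal at or above the 80th percentile on at least 1 array. The steroid dehydrogenase HSD17B2, at a distance of 0.54, had signals of 9.76 (Zeo), 259 (RECK) and 10.6 (RECK/4NQ). BEX1, at 0.90, had 80.6, 2469 and 32.0, and the transcription factor SOX7, at 1.26, had 14.1, 151 and 9.56. CDR2L had 8.83, 130 and 11.6 and SUGCT 25.0, 628 and 47.3. All 5 were high on the RECK array and low on the other 2, as the measure requires. With 3 arrays such a likeness rests on 2 ratios that share the Zeo array.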

How the data were processed

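Total RNA of 3 HT1080 lines was hybridised as biotin-labelled cRNA to 1 array per line. The authors deposited 1 linear intensity per probe set and array, made with MAS5 per the submitters' processing notes; which version and scaling were used is not given in the sources used here. Because MAS5 takes mismatch probes into account, dim values are noisy. Each array held 54675 probe sets, of which 62 controls were left out and 41091 had 1 gene symbol. Python 3.11.15, numpy 2.4.6 and pandas 2.3.3 were used.

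The brightest probe set, by mean log2 signal over the arrays, stood for a gene (19775 genes). The floor was 12.2, and a bright gene was one at or above the 80th percentile, 95.5. A ratio's spread was the median absolute deviation, scaled by 1.4826, over the 1000 genes nearest in level. The code that makes the calls was tested on simulated data, which says nothing about these arrays' noise. Named were all members, the wider lists' genes past 2-fold with the 2 brightest of each, the 5 nearest patterns, and SULF2's nearest and 2-fold neighbours. Members and lists were chosen with earlier results of these data known. Alternatives were 3 scalings, 3 floors or pseudocounts, 2 probe set rules and 2 fold thresholds. Promoter windows came from RefSeq (GRCh38.p14), where 8 of the 10 members matched. The number of arrays limits precision, and with 1 per line no test was possible.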

Additional observations from a re-analysis of the deposited data

How the results depend on the processing

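The SULF2 log2 ratio of RECK over Zeo, 4.65, was 4.04 with a pseudocount of 16 in place of the floor, 3.58 with both probe sets averaged and 2.52 by 233555_s_at alone, an alternative chosen after seeing the data. For RECK over RECK/4NQ, 5.13 became 4.33 with the pseudocount and 4.27 by 233555_s_at. For RECK/4NQ over Zeo, -0.48 became -1.12 with both averaged and -1.75 by 233555_s_at. It was past 2-fold in RECK against both other lines under each alternative. Of the 186 ratios of the other members under alternatives, 4 moved by more than the spread of genes near in level and 0 of the called ones changed sign.

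Of the members, 2 rather than 1 were higher in RECK than in Zeo under each of the 3 scalings, with a 20th percentile floor and at 1.5-fold. The count of lower members went from 1 to 0 under the 3 scalings, a 60th percentile floor, the pseudocount, without shared probe sets (names ending in _s_at, _x_at or _a_at, which leaves EXT2 and HS3ST1 unmeasured) and at 3-fold. In RECK/4NQ the 2 lower members became 1 with a common trimmed mean, quantile normalisation, a 60th percentile floor and without shared probe sets. They became 0 with a common median, the pseudocount and at 3-fold. With the mean of all probe sets there were 3, SULF2 being the third, and at 1.5-fold there were 4. For RECK over RECK/4NQ, 2 were higher at 1.5-fold. The counts of all genes, 797 higher and 1327 lower in RECK than in Zeo, ranged from 234 to 1855 and from 329 to 3635 over the alternatives. GPC1, GPC4, COL18A1, SDC3 and ARSI stayed higher in RECK than in Zeo under each scaling, floor and probe set rule that measured them. XYLT1, ARSL, GALNS and ARSA kept that call under 6, 7, 7 and 6 of 8. HS3ST3B1 in RECK/4NQ changed sign, to 0.67, without shared probe sets. With a 20th percentile floor, 6 rather than 3 genes of the linker, polymerase, breakdown and core protein lists were lower in RECK/4NQ than in Zeo. Among the other sulfatases with SUMF1 and SUMF2 there were 2 rather than 0, and among all genes 2686 rather than 1411. With a 60th percentile floor these counts were 2, 0 and 456. The cause of these changes was not tested. The calls of the ligands and receptors, the chondroitin and dermatan sulfate enzymes and the neighbours of SULF2 were not rerun under the alternatives. No paired analysis was possible because each line has 1 array and no replicate number.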
